A study of Mus musculus with 7 samples.

Results

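Vitamin D receptor and the calcium and phosphate transport genes of enterocytes were described in RNA-seq libraries of mouse intestinal epithelium, as 6 genes (Vdr, Trpv6, S100g, Atp2b1, Slc34a2 and Slc20a1) taken by symbol from a table of 46671 genes. All 6 were found, and 5 reached the mean of 0.5 FPKM required for testing, as did 13057 genes in all. FPKM is the number of fragments, called reads here, per kilobase of gene, scaled to the size of the library. The tested mice, labelled cKO (4 libraries), lacked the kinase MST3, encoded by Stk24, in epithelial cells of the intestine, and the mice they were set against, labelled Ctrl (3 libraries), were wild-type littermates. All were BALB/C mice of 8 weeks kept under SPF (specific pathogen free) conditions. The promoter that drives the deletion is not given in the sources used here, nor whether each library came from a mouse of its own, so p-values measure the spread between libraries. The series' design text names AOM and DSS (a carcinogen and an agent that provokes colitis), whereas the treatment label shared by both groups says that no drug was used.

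Calcitriol, the hormonal form of vitamin D, binds the nuclear receptor VDR, which pairs with a retinoid X receptor on DNA and raises transcription of calcium transport genes in enterocytes. In the transcellular route, calcium enters through the apical channel TRPV6, is carried across the cell bound to calbindin-D9k (S100g) and leaves through the basolateral calcium pump PMCA1 (Atp2b1). Phosphate enters with sodium through the apical cotransporter NaPi-IIb (Slc34a2), and the PiT-1 transporter (Slc20a1) is a widely expressed sodium-phosphate cotransporter that many cells use for their own supply. In rodents the calcium genes are known to be strongest in the duodenum, and in the mouse Slc34a2 is known to be strongest in the ileum.

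Between 14659708 and 19659622 gene-assigned reads per library were recovered from the FPKM values. Stk24 stood between 2.92 and 3.85 FPKM in cKO libraries and between 19.4 and 21.0 FPKM in Ctrl libraries, a log2 difference of -2.42 with an SE of 0.12 (limma adjusted p = 0.00043). The tissue label is colorectum, but small intestinal markers were abundant in all libraries, so the label and the markers are in conflict. The levels below cannot be read as those of colorectal epithelium alone. Of 8 genes listed as large bowel markers 4 reached the level for testing, and the list summed to between 125 and 188 FPKM in cKO and between 123 and 155 FPKM in Ctrl. Most of that sum was the carbonic anhydrase gene Car4, at 85.8 to 141 FPKM in cKO and 91.4 to 114 FPKM in Ctrl, and the anion exchanger gene Slc26a3, at 34.2 to 57.9 FPKM in cKO and 24.2 to 46.2 FPKM in Ctrl, whereas Hoxd13 was at 0 in all libraries and Car1 between 0 and 0.0705 FPKM. All 10 small intestinal enterocyte markers reached that level and summed to between 20876 and 37613 FPKM in cKO and between 29155 and 35559 FPKM in Ctrl, and the small intestinal lactase gene Lct stood between 280 and 523 FPKM in cKO and between 324 and 501 FPKM in Ctrl. Gata4, a transcription factor of the upper and middle small intestine, stood between 39.9 and 50.1 FPKM in cKO and between 50.4 and 53.8 FPKM in Ctrl. Its log2 difference was -0.16 (limma adjusted p = 0.690). Of 5 genes listed as markers of proximal small intestine, 3 could be tested, and the list summed to between 46.1 and 54.7 FPKM in cKO and between 55.4 and 57.9 FPKM in Ctrl, most of it Gata4. The other tested genes had differences above 0, at 0.24 for Onecut2 and 0.59 for the iron exporter gene Slc40a1 (limma adjusted p = 0.746 and 0.680), and the duodenal factor Pdx1 reached at most 0.206 FPKM. Of the 5 genes listed for the ileum, those of the bile acid exporter were abundant, Slc51a at 115 to 182 FPKM in cKO and 84.5 to 182 FPKM in Ctrl, and Slc51b at 40.5 to 76.9 FPKM in cKO and 48.0 to 66.3 FPKM in Ctrl, whereas the bile acid binding protein gene Fabp6 reached at most 4.19 FPKM. The part of these markers in the results below was not tested.

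The regions just before the transcription start are shown for 3 members: S100g and Slc34a2, which varied most between libraries, and Trpv6, which had no reads. Each is the 250 bases before the start as annotated by RefSeq on GRCm38.p6, which is not the build of the deposited table, and is written 5′ to 3′ on the strand of the gene. Capitals mark AGGTCA, the hexamer that nuclear receptors such as VDR and its partners bind, or AGTTCA, a variant found in vitamin D response elements, on either strand.
S100g, chrX:162964600-162964849, minus strand: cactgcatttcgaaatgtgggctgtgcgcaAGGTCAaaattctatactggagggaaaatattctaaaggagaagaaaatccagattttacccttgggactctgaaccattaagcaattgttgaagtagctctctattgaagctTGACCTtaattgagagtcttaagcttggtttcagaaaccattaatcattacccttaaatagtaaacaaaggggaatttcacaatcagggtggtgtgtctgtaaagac
Trpv6, chr6:41636406-41636655, minus strand: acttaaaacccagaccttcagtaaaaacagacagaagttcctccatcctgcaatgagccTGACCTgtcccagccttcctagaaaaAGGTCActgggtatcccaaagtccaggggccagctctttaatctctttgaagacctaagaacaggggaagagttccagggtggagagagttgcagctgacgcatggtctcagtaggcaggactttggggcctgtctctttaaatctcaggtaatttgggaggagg
Slc34a2, chr5:53049103-53049352, plus strand: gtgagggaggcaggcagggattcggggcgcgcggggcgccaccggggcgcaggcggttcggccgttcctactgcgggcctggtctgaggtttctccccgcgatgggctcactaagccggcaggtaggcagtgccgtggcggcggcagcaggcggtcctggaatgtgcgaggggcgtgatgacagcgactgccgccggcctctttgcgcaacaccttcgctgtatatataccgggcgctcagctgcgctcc
S100g held AGGTCA at 2 places, from -220 to -215 on the gene's strand and from -107 to -102 on the other strand, counted from the start. Trpv6 also held it at 2 places, from -191 to -186 on the other strand and from -165 to -160 on its own. Slc34a2 held neither hexamer in this window. AGGTCA occurred in 14.0% of 32851 RefSeq promoter windows of the same length and AGTTCA in 11.8%, on either strand. Vdr had AGTTCA at 1 place, each of the 2 annotated starts of Slc20a1 had AGGTCA at 1 place, and the 2 starts of Atp2b1 had neither. The windows also differed in base composition. G and C made up 38.4% of the S100g window, 49.6% of that of Trpv6 and 69.6% of that of Slc34a2, against a median of 52.4% over all windows. All 6 members matched an entry of this table.

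Vdr was the most abundant member. It stood at 98.3, 95.1, 83.4 and 85.1 FPKM in cKO libraries 1 to 4, and at 90.6, 93.9 and 102 FPKM in Ctrl libraries 1 to 3. The groups overlapped, and the level hardly varied, with a coefficient of variation of 7.21% over the 7 libraries against a median of 19.0% over all genes tested. The means were 90.5 ± 7.35 FPKM in cKO (SD, n = 4) and 95.4 ± 5.64 FPKM in Ctrl (SD, n = 3). The difference, cKO minus Ctrl on the log2(FPKM + 0.5) scale, was -0.08 (SE 0.12, 95% interval -0.34 to 0.19), and it did not pass (limma adjusted p = 0.871). Its sign turned when values were rescaled to a common sum (TPM) or quantile normalized. The Vdr locus is chr15:97752308-97806177 (minus strand, GRCm39, the build of the deposited table, as for all members here), and its values rested on between 5156 and 7653 reads per library. Its mean level was above that of 94.2% of the genes tested.

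Trpv6, the entry channel, had 0 reads in each of the 4 cKO and 3 Ctrl libraries, among 114482129 reads in all. A count of 0 allows up to 3 reads in a library, which would be between 0.0528 and 0.0736 FPKM for this gene of 2928 bases. The locus is chr6:41597553-41613339 (minus strand). Its paralog Trpv5, the renal calcium channel next to it, also had 0 reads, and Ephb6, the neighbour on the other side, had 48 reads over the 7 libraries. Of 22186 protein-coding genes in the table, 25.2% had no read in any library, whereas none of 13 housekeeping genes was at 0 in any library. No difference between genotypes can be stated for Trpv6 at this depth.

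S100g, the cytosolic calcium buffer, varied widely within each genotype. It stood at 8.56, 7.04, 23.0 and 9.58 FPKM in cKO libraries 1 to 4, and at 13.1, 15.6 and 6.95 FPKM in Ctrl libraries 1 to 3. The groups overlapped, cKO library 3 being the highest of all and Ctrl library 3 the lowest. The means were 12.03 ± 7.35 FPKM in cKO (SD, n = 4) and 11.9 ± 4.46 FPKM in Ctrl (SD, n = 3). On the log2 scale the difference was -0.06 (SE 0.41, 95% interval -1.02 to 0.89, limma adjusted p = 0.976), so its sign is not that of the difference in means. It was -0.42 without cKO library 3, 0.16 without Ctrl library 2 and 0.021 after rescaling to TPM, with no call in any of these. The gene is short, at 480 bases, and was read 54 to 160 times per library. Its coefficient of variation over the 7 libraries was 48.5%. The locus, chrX:161744988-161747595 (minus strand), overlaps Ctps2 on the opposite strand, and since the strand setting of the counting is not given, reads of these genes may not be told apart. Ctps2 averaged 2.13 FPKM and reached at most 2.33 FPKM, but it was read 167 to 276 times per library, more than the 54 to 160 of S100g.

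Atp2b1, the export pump, was the one member whose genotypes did not overlap. It stood at 15.6, 14.8, 16.1 and 16.8 FPKM in cKO libraries 1 to 4, and at 13.6, 14.5 and 11.8 FPKM in Ctrl libraries 1 to 3. All cKO libraries lay above all Ctrl libraries, with a small gap between cKO library 2 and Ctrl library 2. The means were 15.8 ± 0.810 FPKM in cKO (SD, n = 4) and 13.3 ± 1.34 FPKM in Ctrl (SD, n = 3). The log2 difference of 0.25 (SE 0.11, 95% interval 0.0011 to 0.49) did not pass (limma adjusted p = 0.554). Its unadjusted limma p was 0.0492, and by exact 2-sided permutation of the libraries p was 0.0571, which no arrangement of 35 can go below. Among all genes tested, 10.1% had genotypes that did not overlap (5.62% higher and 4.51% lower in cKO) and 8.97% had an unadjusted p under 0.05. Beside these shares, 1 of 5 members is no result about the members as a set. The difference lay between 0.17 and 0.33 in the 21 alternatives and passed in none. Where a library was left out its sign was fixed beforehand, since the groups do not overlap. Other filters, variance models and the threshold of 0.1 left the difference as it was, so the positive sign in these adds nothing. The locus is chr10:98750243-98862005 (plus strand), and Atp2b1 was read 1569 to 2278 times per library. It made up between 96.5% and 98.3% of the summed FPKM of the 4 plasma membrane calcium pump genes (Atp2b1 to Atp2b4) in cKO, and between 95.5% and 97.7% in Ctrl.

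Slc34a2, the apical phosphate cotransporter, was the most variable member. It stood at 32.2, 13.6, 22.5 and 35.2 FPKM in cKO libraries 1 to 4, and at 11.4, 13.7 and 71.1 FPKM in Ctrl libraries 1 to 3. The cKO libraries lay within the span of the Ctrl libraries, Ctrl library 3 standing 6.25-fold above Ctrl library 1. The means were 25.9 ± 9.79 FPKM in cKO (SD, n = 4) and 32.1 ± 33.8 FPKM in Ctrl (SD, n = 3). The log2 difference was 0.11 (SE 0.62, 95% interval -1.31 to 1.54, limma adjusted p = 0.970) and has the opposite sign to the difference in means. Without Ctrl library 3 it was 0.93 (SE 0.36, limma adjusted p = 0.653), and without Ctrl library 1 it was -0.36. It was read 922 to 4806 times per library. Its coefficient of variation was 73.6%, and 4.75% of the genes tested had a higher one. The locus is chr5:53206695-53229006 (plus strand).

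The other transporters of its family were weak. Slc34a2 made up between 91.4% and 97.7% of the summed FPKM of the Slc34 genes in cKO and between 85.8% and 98.1% in Ctrl, the rest being mostly Slc34a3, best known from the kidney. Its level was between 2.76 and 7.27 times that of Slc20a1 in cKO libraries, and between 1.58 and 12.7 times in Ctrl libraries, so the apical cotransporter stood above PiT-1 in all 7. Against Slc20a1 and its paralog Slc20a2 summed, it was between 1.27 and 3.63 times in cKO and between 0.934 and 6.27 times in Ctrl. In Ctrl libraries 1 and 2 it lay below that sum, at 0.986 and 0.934 times.

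Marker lists of cell states and gut regions were set beside the level of Slc34a2. The 5 villus tip genes summed to between 407 and 823 FPKM in cKO and between 469 and 1017 FPKM in Ctrl, with Ctrl library 3 the highest. Of these, Nt5e, an enzyme that makes adenosine at the cell surface, stood at 13.6, 27.7, 26.1 and 43.9 FPKM in cKO libraries 1 to 4, and at 7.79, 24.4 and 41.6 FPKM in Ctrl libraries 1 to 3. The libraries highest for Slc34a2 in each genotype, cKO library 4 and Ctrl library 3, were also the highest for Nt5e and for the list as a whole, but cKO library 1 was high for Slc34a2 and low for the list. The 5 ileal genes summed to between 158 and 264 FPKM in cKO and between 136 and 248 FPKM in Ctrl, lowest in Ctrl library 3, and most of the sum was Slc51a and Slc51b. As a mean over the list's genes of log2(FPKM + 0.5) relative to the Ctrl mean, which weights the genes alike, it stood at 0.48, 0.06, -0.08 and 0.66 in cKO libraries 1 to 4, and at 0.10, -0.11 and 0.01 in Ctrl libraries 1 to 3. By that measure cKO libraries 4 and 1 were the highest, as they were for Slc34a2 among cKO libraries. Ctrl library 3 lay between the other Ctrl libraries. By the sum, cKO library 1 stood at 181 FPKM, below cKO libraries 3 and 4 at 231 and 264 FPKM. The mean counts weak genes such as Fabp6 and Slc10a2 as much as Slc51a and Slc51b. Slc10a2 stood between 0.682 and 2.72 FPKM in cKO and between 0.287 and 0.524 FPKM in Ctrl. It did not overlap, like 10.1% of all genes tested, and differed by 0.96 (limma adjusted p = 0.522). The 5 Paneth cell genes, which mark crypts of the small intestine, summed to between 3683 and 15631 FPKM in cKO and between 7434 and 20939 FPKM in Ctrl. Ctrl library 3 was the highest, as for Slc34a2. But cKO library 4, the highest cKO library for Slc34a2, was the lowest of all for the Paneth list, at 3683 FPKM. What part these play in the level of Slc34a2 was not tested, and in such bulk samples fewer cells of a type and less RNA per cell cannot be told apart.

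**Figure D1:**
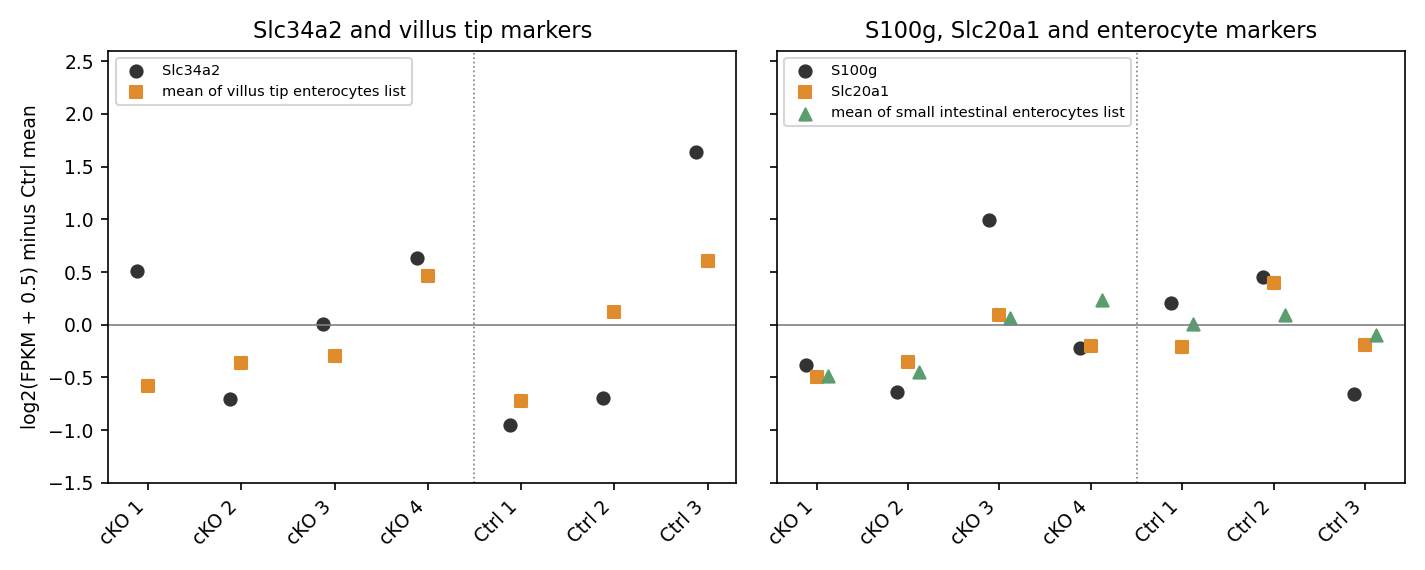
Level of each library relative to the Ctrl mean on the log2(FPKM + 0.5) scale (y axis), with cKO libraries left of the dotted line and Ctrl libraries right of it. Left, Slc34a2 and the mean of 5 villus tip genes. Right, S100g, Slc20a1 and the mean of 10 small intestinal enterocyte genes. Ctrl library 3 stands at 1.64 for Slc34a2 and at 0.60 for the villus tip list, and cKO library 3 stands at 0.99 for S100g and at 0.09 for Slc20a1.

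Slc20a1, the PiT-1 transporter, was the weakest member with reads. It stood at 4.43, 4.93, 6.89 and 5.56 FPKM in cKO libraries 1 to 4, and at 5.51, 8.66 and 5.58 FPKM in Ctrl libraries 1 to 3. The groups overlapped, and Ctrl library 2 and cKO library 3, the highest for Slc20a1, were also the highest for S100g. Over all genes tested, the deviations of these libraries from their group means had a correlation of 0.31, the highest of any pair of a cKO and a Ctrl library. The means were 5.45 ± 1.07 FPKM in cKO (SD, n = 4) and 6.59 ± 1.80 FPKM in Ctrl (SD, n = 3). The difference was -0.24 (SE 0.20, 95% interval -0.70 to 0.22, limma adjusted p = 0.743) and it was -0.04 without Ctrl library 2. The locus is chr2:129038662-129053535 (plus strand), and Slc20a1 was read 581 to 1093 times per library. It made up between 45.9% and 57.3% of the summed FPKM of Slc20a1 and its paralog Slc20a2 in cKO, and between 47.7% and 59.0% in Ctrl.

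**Figure D2:**
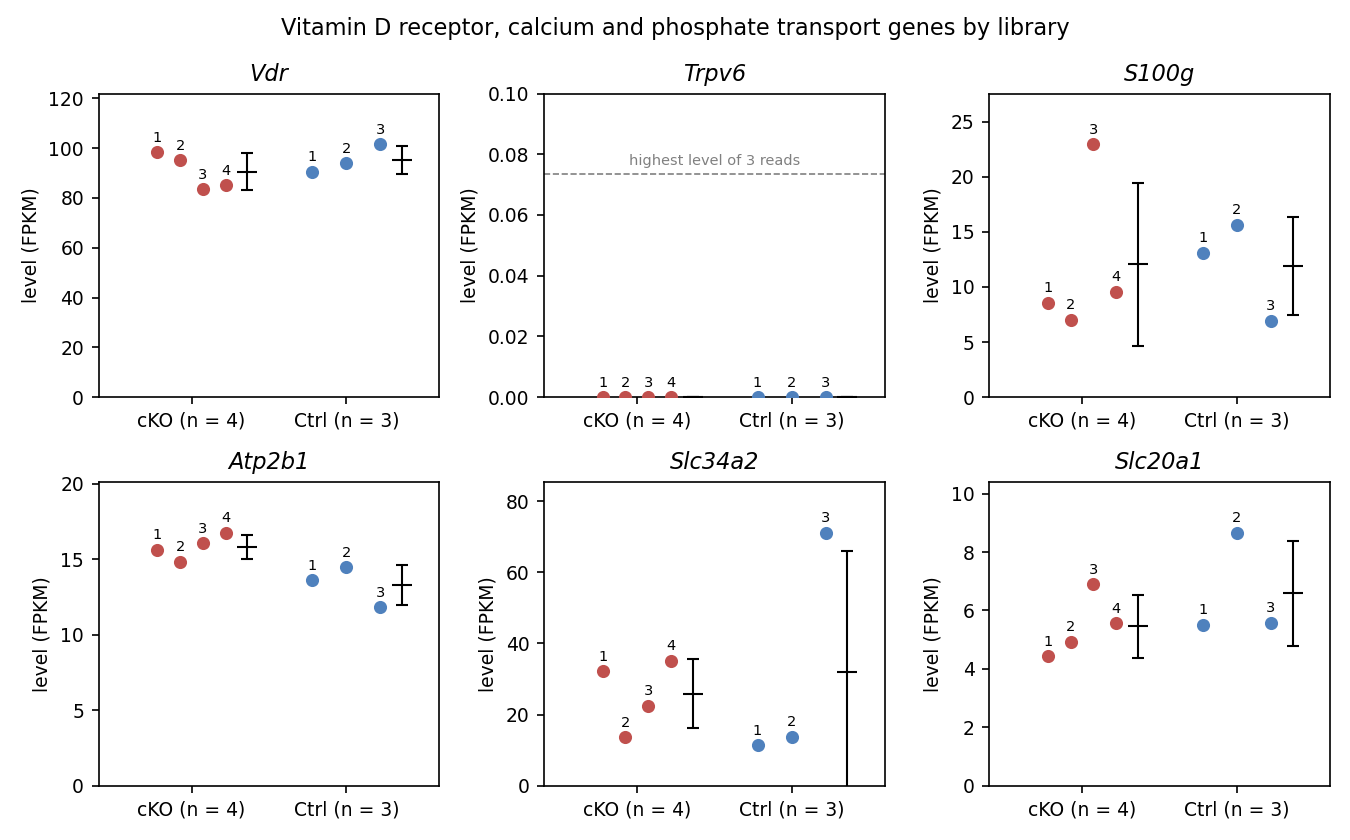
FPKM (y axis, from 0) of the 6 members in each library, with cKO left and Ctrl right in each panel. Points are libraries with their replicate numbers, and bars beside them give the mean and SD, that of Slc34a2 in Ctrl reaching below the axis. The dashed line for Trpv6 marks 0.0736 FPKM, the highest level that 3 reads would give in any library. The cKO libraries lie above the Ctrl libraries for Atp2b1 and overlap them for Vdr, S100g, Slc34a2 and Slc20a1.

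In the order of mean level per length over all libraries, the members ran Vdr at 92.6, Slc34a2 at 28.5, Atp2b1 at 14.7, S100g at 11.97, Slc20a1 at 5.94 and Trpv6 at 0 FPKM. Vdr stood above all others in all 7 libraries without overlap of ranges. The ranges of Slc34a2 and Atp2b1 overlapped, with Slc34a2 higher in 4 of 7 libraries, and so did those of Atp2b1 and S100g, with Atp2b1 higher in 5 of 7. S100g and Slc20a1 overlapped in range although S100g was higher in all 7 libraries.

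None of the 5 members tested passed in limma (0 of 5 at an adjusted p of 0.05, 1 of 5 at an unadjusted p under 0.05), and none passed in voom on the recovered reads. Over all genes tested, 4 passed, or 0.0306%. The median log2 difference of the members was -0.06, with 2 above 0 and 3 below, beside -0.01 over all genes tested, of which 6363 lay above 0 and 6694 below. After rescaling to TPM 4 members lay above 0 and 1 below, beside 8014 and 5047 of all genes tested. Exact 2-sided permutation gave p = 0.4 for Vdr, 0.914 for S100g, 1.0 for Slc34a2 and 0.343 for Slc20a1. The intervals, as ratios on the scale of FPKM + 0.5, show what the libraries could resolve. For Vdr the 95% interval spans 0.788 to 1.14 times the Ctrl level and for Atp2b1 1.001 to 1.41 times, whereas for S100g it spans 0.494 to 1.85 times and for Slc34a2 0.402 to 2.90 times.

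**Figure D3:**
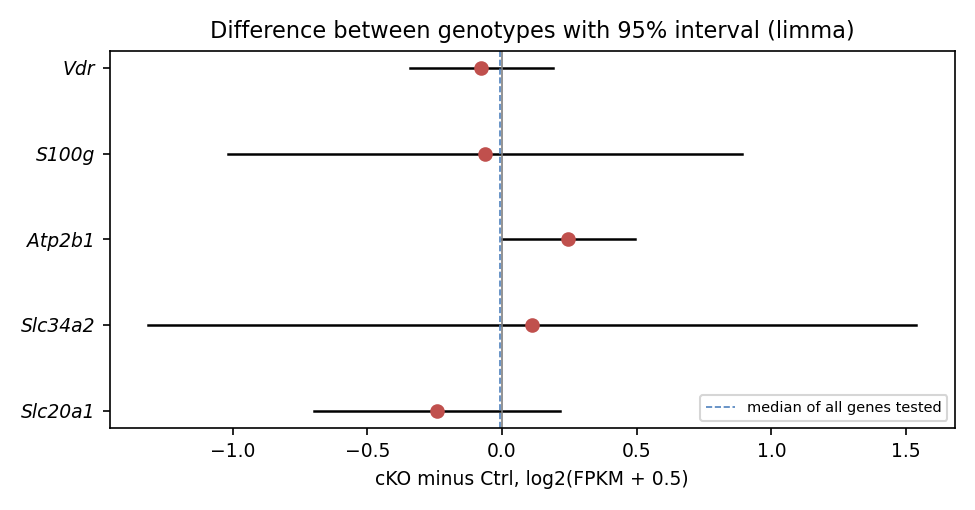
Difference in log2(FPKM + 0.5), cKO minus Ctrl (x axis), of the 5 members tested, with points for the limma estimate and lines for its 95% interval. The dashed line is the median of all genes tested, at -0.01. The intervals of Vdr, S100g, Slc34a2 and Slc20a1 include 0, that of Atp2b1 starts at 0.0011, and that of Slc34a2 is the widest, from -1.31 to 1.54.

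Genes of vitamin D signalling and metabolism did not pass in either direction. Of 18 listed, 12 were tested, 0 passed in limma and in voom, and 1 had an unadjusted p under 0.05, with 7 above 0 and 5 below and a median difference of 0.08. Between genotypes 2 of the 12 did not overlap. Of all genes tested 10.1% did not overlap and 8.97% had an unadjusted limma p under 0.05. Beside these shares the counts are no result about the list. Rxra, a retinoid X receptor that pairs with VDR, stood between 25.8 and 31.0 FPKM in cKO and between 31.2 and 32.4 FPKM in Ctrl, without overlap, with a difference of -0.12 (SE 0.10, limma adjusted p = 0.753). Vdr was between 2.75 and 3.68 times as high as Rxra in cKO and between 2.89 and 3.26 times in Ctrl. Rxrb, another partner, had the smallest p of the list. It stood at 16.3, 14.4, 10.7 and 13.9 FPKM in cKO libraries 1 to 4, and at 19.3, 18.4 and 18.0 FPKM in Ctrl libraries 1 to 3. The groups did not overlap, and the difference was -0.43 (SE 0.15, limma adjusted p = 0.516). The steroid receptor coactivator gene Ncoa2 differed by 0.18 (adjusted p = 0.690). The most abundant of the list was Pdia3, a protein disulfide isomerase also described as a membrane binding site of calcitriol, at 216 ± 21.5 FPKM in cKO (SD, n = 4) and 194 ± 25.7 FPKM in Ctrl (SD, n = 3). Cyp27a1, a sterol hydroxylase that can act on vitamin D, averaged 44.7 ± 17.6 FPKM in cKO and 51.1 ± 7.26 FPKM in Ctrl. Cubn, the receptor for intrinsic factor that also takes up vitamin D binding protein in the kidney, averaged 48.0 ± 17.4 FPKM in cKO and 39.9 ± 10.9 FPKM in Ctrl.

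Other intestinal genes known as targets of VDR showed no call either, with 6 of 7 tested, 0 past the threshold in limma and in voom, 0 at an unadjusted p under 0.05, and a median difference of -0.01. As many lay above 0 as below (3 and 3). After rescaling to TPM 4 lay above and 2 below, beside 8014 and 5047 of all genes tested. Cyp24a1, which inactivates calcitriol and is the most responsive VDR target in many tissues, was read 1 time, in cKO library 2, and 0 times in the other libraries, a gene named here after its values were seen. Cyp3a11, a cytochrome P450 that degrades vitamin D metabolites and bile acids, stood at 200, 266, 317 and 546 FPKM in cKO libraries 1 to 4, and at 361, 228 and 615 FPKM in Ctrl libraries 1 to 3. It was highest in Ctrl library 3 and cKO library 4, the libraries that were also highest for Slc34a2 within their genotypes. But cKO library 1, also high for Slc34a2, was the lowest of all for Cyp3a11. Ctrl library 1, the lowest for Slc34a2, lay above Ctrl library 2 for Cyp3a11. The difference of Cyp3a11 was -0.26 (SE 0.41, limma adjusted p = 0.884). Abcb1a, a drug efflux pump, averaged 97.5 ± 17.8 FPKM in cKO and 89.2 ± 34.2 FPKM in Ctrl. Abcc3, an organic anion exporter, averaged 14.9 ± 1.47 FPKM in cKO and 15.1 ± 6.47 FPKM in Ctrl. Of the claudins linked to paracellular calcium, Cldn2 averaged 21.4 ± 7.63 FPKM in cKO and 22.6 ± 3.32 FPKM in Ctrl, and Cldn12 averaged 9.51 ± 1.42 FPKM in cKO and 8.80 ± 0.875 FPKM in Ctrl.

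Among genes of calcium entry, buffering and extrusion, 18 of 30 were tested, 0 passed in limma and in voom, and 1 had an unadjusted p under 0.05. Between genotypes 1 of the 18 did not overlap. Of all genes tested 10.1% did not overlap and 8.97% had an unadjusted limma p under 0.05. As many differences of the list lay above 0 as below (9 and 9), with a median of -0.01. After rescaling to TPM 13 lay above 0 and 5 below, beside 8014 and 5047 of all genes tested. Trpm7, a channel kinase that conducts magnesium and calcium, had the smallest p. It stood at 7.64, 8.55, 7.78 and 7.18 FPKM in cKO libraries 1 to 4, and at 5.32, 6.86 and 6.74 FPKM in Ctrl libraries 1 to 3. The groups did not overlap, and the difference was 0.29 (SE 0.12, limma adjusted p = 0.547). Slc8b1, the mitochondrial sodium-calcium exchanger, differed by -0.24 (adjusted p = 0.689). Abundant genes of the list were S100a10 and its partner Anxa2, which carry TRP channels to the membrane, and the paracellular cation pore gene Cldn15. S100a10 averaged 725 ± 161 FPKM in cKO and 694 ± 46.8 FPKM in Ctrl, and Anxa2 averaged 497 ± 133 FPKM in cKO and 517 ± 28.2 FPKM in Ctrl. Cldn15 averaged 333 ± 30.4 FPKM in cKO and 392 ± 55.5 FPKM in Ctrl. None of these was called. Calb1, which encodes the larger calbindin of kidney and brain, was read 1 time in cKO and 1 time in Ctrl over all libraries, and was named after its values were seen.

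Among phosphate genes other than the members, more differences lay below 0 than above, without a call. Of 24 listed symbols 22 were in the table and 14 were tested, 0 passed in limma and in voom, and 1 had an unadjusted p under 0.05. Between genotypes 1 of the 14 did not overlap. Of all genes tested 10.1% did not overlap and 8.97% had an unadjusted limma p under 0.05. Of the 14 differences 11 lay below 0 and 3 above, with a median of -0.20, beside 51.3% below and a median of -0.01 over all genes tested. After rescaling to TPM 8 lay below and 6 above, with a median of -0.11, beside 38.6% below and a median of 0.07 over all genes tested. Without cKO library 4 it was again 8 below and 6 above, beside 51.3% of all genes tested below. Pdzk1, a scaffold that holds NaPi transporters at the brush border, stood at 44.3, 31.1, 28.2 and 44.8 FPKM in cKO libraries 1 to 4, and at 45.5, 58.9 and 48.9 FPKM in Ctrl libraries 1 to 3. The groups did not overlap, with cKO library 4 and Ctrl library 1 close together, and the difference was -0.48 (SE 0.20, limma adjusted p = 0.542). Akp3, an alkaline phosphatase of the gut, averaged 1.69 ± 0.759 FPKM in cKO and 3.05 ± 1.10 FPKM in Ctrl, a difference of -0.72 (SE 0.31, adjusted p = 0.554). Slc9a3r1, which encodes the scaffold NHERF1, averaged 892 ± 224 FPKM in cKO and 1006 ± 182 FPKM in Ctrl. Alpi, the main intestinal alkaline phosphatase, averaged 347 ± 92.4 FPKM in cKO and 396 ± 69.2 FPKM in Ctrl. Slc9a3, the sodium-proton exchanger NHE3, averaged 27.1 ± 6.68 FPKM in cKO and 31.7 ± 4.62 FPKM in Ctrl.

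**Figure D4:**
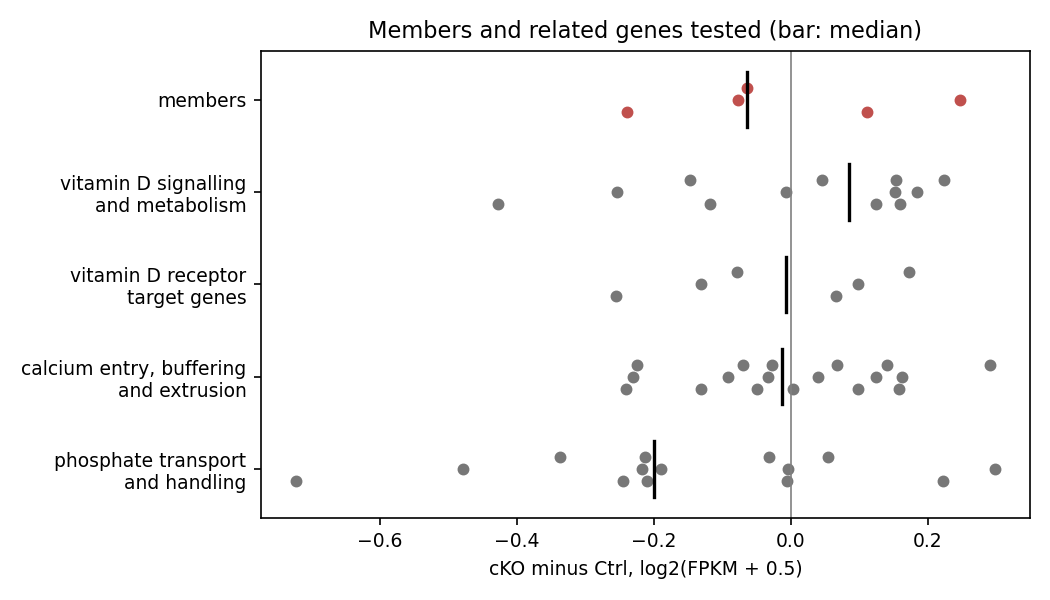
Difference in log2(FPKM + 0.5), cKO minus Ctrl (x axis), of each gene tested, for the members and 4 lists of related genes. Points are genes, spread vertically for sight only, and bars are medians, which lie at -0.06 for the members, 0.08 for vitamin D signalling and metabolism, -0.01 for VDR targets, -0.01 for calcium and -0.20 for phosphate genes.

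Genes whose pattern over the 7 libraries was most like that of a member were sought by Pearson correlation of log2(FPKM + 0.5) among 10403 genes whose mean reached 1 FPKM. Many genes had a high value over so few libraries, and 86 genes reached 0.9 with Vdr, 64 with S100g, 79 with Atp2b1, 13 with Slc34a2 and 44 with Slc20a1. The 3 most like Vdr were Cpsf1, of the polyadenylation complex, Chtf18, of a replication clamp loader, and Dnajc24, a cochaperone, at 0.984, 0.983 and 0.982. For S100g they were Vkorc1, which recycles vitamin K, Mppe1 and Prrc1, at 0.974, 0.973 and 0.970. For Atp2b1 they were the caspase gene Casp9, the mitochondrial protease gene Oma1 and the 14-3-3 protein gene Ywhaq, at 0.979, 0.979 and 0.972. For Slc34a2 they were Tcf7l2, a transcription factor of Wnt signalling, Rnf24 and Chmp2b, of the membrane-sorting ESCRT machinery, at 0.953, 0.946 and 0.943. Rnf24, for instance, stood at 3.12 FPKM in Ctrl library 3 and at 0.842 and 1.22 FPKM in Ctrl libraries 1 and 2. For Slc20a1 they were the pseudogene Mid1-ps1, the proton channel gene Otop3 and Vps9d1, at 0.983, 0.976 and 0.976.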

How the data were processed

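RNA-seq values of 7 libraries, 4 cKO and 3 Ctrl by their titles, were read from 1 deposited table of FPKM per gene and library, matched to samples through the description labels. Library numbers here are those of the titles. Apart from Ctrl library 1 they differ from the numbers in the column labels, where Ctrl library 3, for instance, is labelled Ctrl_4. Per the submitters' processing notes the authors aligned reads with HISAT2. Its version, the program that counted reads, its strand setting and its gene annotation are not stated in the labels. Chromosome accessions in the table belong to GRCm39. In each library, FPKM multiplied by gene length came in whole steps for 100% of values (within 0.01), which gave the reads behind each value, between 14659708 and 19659622 per library. The library sizes behind the deposited FPKM were 0.891 to 1.10 times these totals.

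The 13057 genes whose mean reached 0.5 FPKM were compared on log2(FPKM + 0.5), which understates changes of weak genes, with limma 3.58.1 in R 4.3.3 (lmFit, eBayes with a trend, no covariate, 2-sided, Benjamini-Hochberg over all genes tested, threshold 0.05), and single values with the exact permutation test of scipy 1.17.1. Intervals are limma's 95% intervals, and the limit set by a count of 0 is 3 reads and covers counting error only. The script was tested on simulated data. Members, lists and tests were chosen with earlier results of these data known. Named besides the members were, in each list, the 4 most abundant tested genes and the 2 of smallest p, and the 3 genes most like each member, apart from 1 gene that is not reported here. Markers, paralogs and neighbours given besides were chosen after their values were seen. Of 76 symbols in the 4 lists, 74 were matched. Alternatives were other pseudocounts, filters, scalings and variance models, array weights, voom on recovered reads (at least 10 reads in 3 libraries), the replicate number as a block, a threshold of 0.1, and leaving out each library.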

Additional observations from a re-analysis of the deposited data

Results flagged for a closer look

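S100g in cKO replicate 3, at 23.0 FPKM, stood far above the other cKO libraries, which lay between 7.04 and 9.58 FPKM. Vkorc1, named for its likeness to S100g, stood apart in the same library, at 25.7 FPKM against 16.2 to 17.7 FPKM. Anxa2 stood apart in cKO replicate 4, at 696 FPKM against 424 to 434 FPKM in the other cKO libraries. These were the ones in which 1 cKO library lay beyond Dixon's 95% limit for 4 values, among 43 genes checked, where chance gives about 1 in 20. The 3 Ctrl libraries were too few to check.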

How the results depend on the processing

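In 21 alternatives no member and no gene of the 4 lists passed the test, so their counts stayed at 0. Trpv6, with no reads, gave no value in any. The log2 difference of Vdr turned to 0.010 with TPM and 0.036 after quantile normalization, and that of S100g to 0.021 with TPM. When 1 library was left out, S100g lay between -0.42 and 0.16, Slc34a2 between -0.36 and 0.93, and the median of the members between -0.11 and 0.13. The 4 calls over all genes became 1 with a pseudocount of 0.1, with no filter and with a minimum mean of 1 FPKM, 2 with voom, and between 1 and 7 when 1 library was left out (7 without cKO replicate 1). With the replicate block they became 0 (1052 genes at an unadjusted p under 0.05), Stk24 stood at -2.44 with an adjusted p of 0.137, and Slc34a2 at -0.063. By the titles no Ctrl library is numbered 4, so the block takes cKO replicate 4 out of the difference. Both differences were thus the same as when that library was left out. Same-numbered libraries did not deviate together (correlations of 0.12, -0.09 and -0.13), and only the libraries numbered 1 deviated most like each other. The samples share only a number in their titles. Apart from the loss of cKO replicate 4 under the block, the cause of these changes was not tested. Over all alternatives the median lay between 0.013 and 0.17 for vitamin D genes, -0.025 and 0.079 for VDR targets, -0.059 and 0.075 for calcium genes, and -0.23 and -0.032 for phosphate genes.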
